A study of Drosophila melanogaster with 32 samples.

Results

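The trypsins and Jonah proteases of Drosophila melanogaster are digestive serine proteases of the midgut. The family was taken from the gene symbols of the array annotation. It comprised 10 trypsin genes, 14 Jonah genes (yip7 included) and the serine protease genes Ser6, Ser7 and Ser8. The trypsins were alphaTry, betaTry, epsilonTry, zetaTry, etaTry, thetaTry, iotaTry, kappaTry, lambdaTry and Try29F. The rule also named gammaTry and deltaTry, but neither had a probe set annotated to it alone. The 27 genes of the family were found among 11982 genes represented by 1 probe set each, and each of the 27 had a single probe set. The rule used symbols and no expression value, although earlier results of these data were known when the family was chosen.

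Expression had been measured on 32 arrays of RNA from whole adult females of 8 populations derived from the LHM base stock, a laboratory population. Of these, 4 (Mono1 to Mono4) had been held to a single mating per generation (monogamy), and 4 (Prom1 to Prom4) had kept the usual promiscuous mating, for 46 generations. Females of each population were paired with own-population males or with those of the other regime's population of equal number, and were frozen 6 h later. The 16 crosses, with 1 array in each of 2 batches, formed 4 groups of 8 arrays: Mono females with Mono males, Mono females with Prom males, Prom females with Mono males and Prom females with Prom males. All females were mated, no virgin group was analysed here, and the labels used here give no age. How many females were pooled for an array, and whether replicate arrays came from separate matings, is not stated in the labels, so p-values based on replicate arrays measure the spread between those arrays, which may be technical.

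Trypsins and Jonah enzymes are secreted by enterocytes, the absorptive cells of the midgut, and cleave dietary protein in the gut lumen. Trypsins are made as inactive precursors and cut after lysine or arginine, and most Jonah products are annotated as chymotrypsin-like or elastase-like enzymes of the same fold. Most of these genes arose by tandem duplication and lie beside close relatives. In the RefSeq gene table of the assembly Release 6 plus ISO1 MT, 9 of the trypsin genes lay together on chromosome arm 2R. Their order was lambdaTry, kappaTry, zetaTry, etaTry, thetaTry, alphaTry, epsilonTry, betaTry and iotaTry. Between betaTry and iotaTry lay 5 protein-coding genes outside the family as taken here. Try29F lay alone on 2L. The Jonah genes formed a group of 3 on 2L (Jon25Biii, Jon25Bii and Jon25Bi), a group of 5 on 3L (yip7, Jon65Aiv, Jon65Aiii, Jon65Aii and Jon65Ai) and a pair on 3L (Jon66Ci and Jon66Cii). Jon44E on 2R, Jon74E on 3L, and Jon99Ci and Jon99Fi on 3R stood apart from the other genes of the 27. So did Ser8 on 2R and Ser6 and Ser7 on X. Only these 27 genes were placed, so relatives without a probe set of their own may lie beside any of them.

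Values were log2 expression units per probe set, and arrays had medians of 5.41 to 5.50. The mean over 32 arrays was 13.90 for Jon25Biii, 13.79 for Jon65Aiv and 13.75 for alphaTry, the highest of the 27, and 5.58 for Try29F, 5.77 for Jon66Cii and 6.34 for Jon66Ci, the lowest. Probe sets bind with unequal strength, so these values do not rank transcript amounts. Some members, such as alphaTry and betaTry, are close copies, and how far their probes tell them apart was not tested. Of the markers of the labelled whole body, the enterocyte gene mex1 lay between 8.94 and 10.02 and the yolk gene Yp1 between 14.68 and 14.79, while the male accessory gland genes Acp26Aa and SP had means of 2.77 and 3.61. The 2 arrays of each cross had correlations of 0.996 to 0.998, so none was a copy of its partner. Arrays of different crosses in the same batch had correlations of 0.994 to 0.998, which overlap these.

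The first question was whether females of different populations with the same mating history differed. For most genes of the family they did. Of the 27 genes, 20 differed among the populations of a regime (moderated F test in limma, Benjamini-Hochberg adjusted over 18769 probe sets, threshold 0.05), or 74.1%, against 13.7% of all probe sets and 17.4% of genes. All 14 Jonah genes passed, with 5 of 10 trypsins (thetaTry, alphaTry, kappaTry, epsilonTry and betaTry) and 1 of the 3 Ser genes (Ser6). The median range of the 8 population means was 0.49 log2 units in the family and 0.21 over all genes. Ranges and their folds here run over all 8 populations, whereas the test compares populations within each regime. Many of these genes have bright probe sets. Of genes with a mean of at least 12, 11 of 11 in the family and 54 of 280 in all (19.3%) passed. Among Mono populations alone 18 of 27 passed (10.7% of probe sets did), and among Prom populations alone 9 of 27 (7.67%). In whole females, fewer cells of a type and less RNA per cell cannot be told apart.

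**Figure D1:**
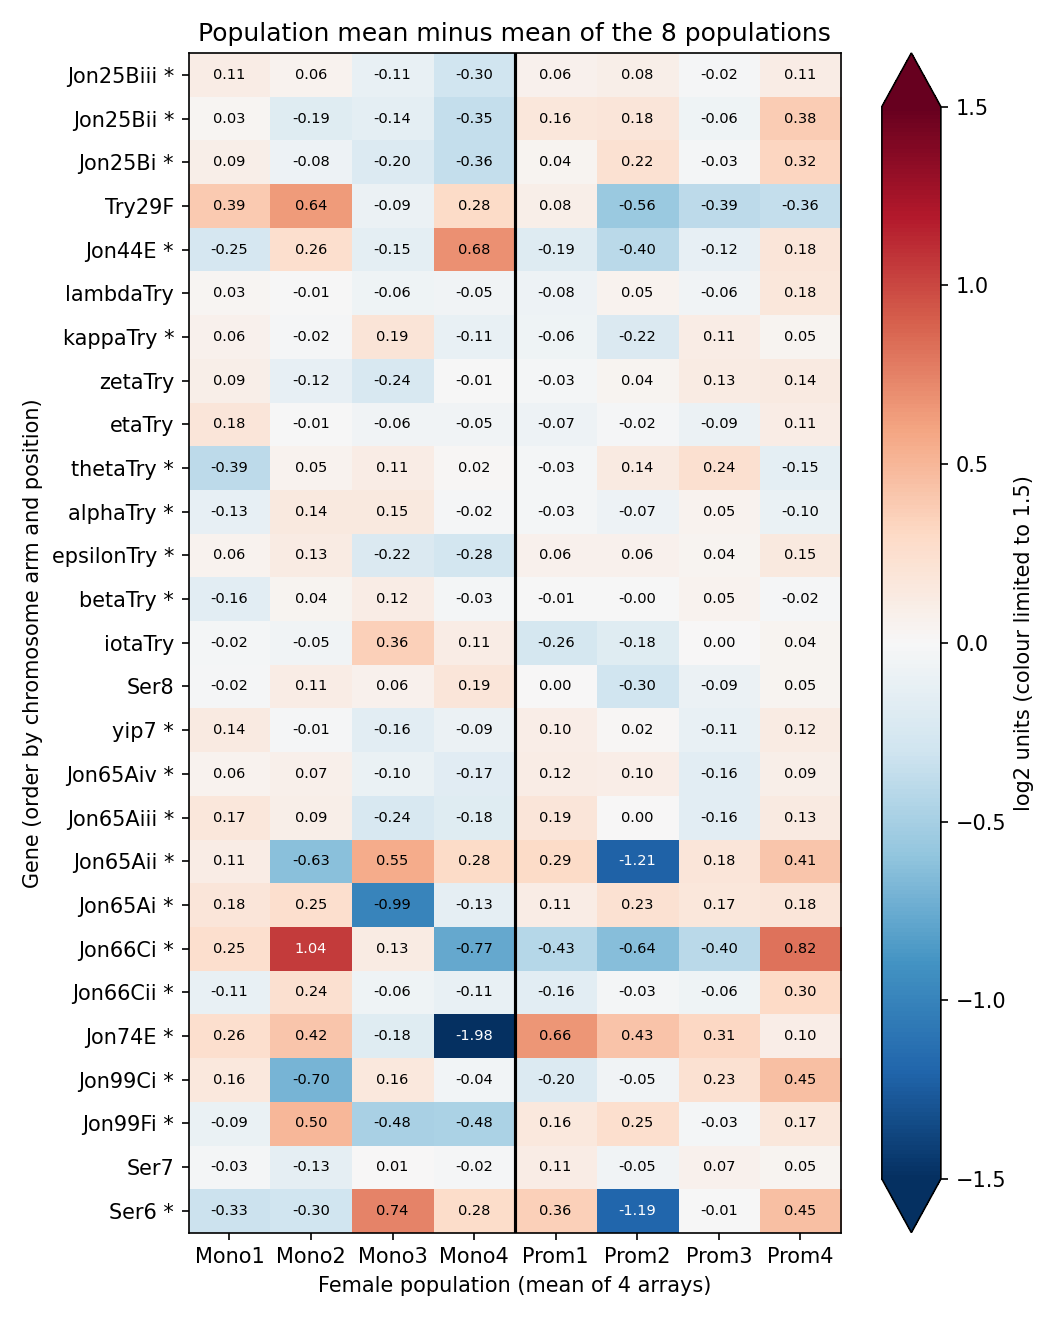
Mean of the 4 arrays of each female population (columns) minus the mean of the 8 populations, in log2 units, for each of the 27 genes (rows, by chromosome arm and position). Asterisks mark the 20 genes that passed the test among populations of a regime. The darkest cells include Jon74E in Mono4 at -1.98, and Jon65Aii and Ser6, both in Prom2, at -1.21 and -1.19. Jon66Ci in Mono2 at 1.04 and Jon65Ai in Mono3 at -0.99 are also dark.

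No single population was high or low for the whole family. Mono4 had the lowest mean for 7 genes, Prom2 for 6 and Mono3 for 5, while Prom4 had the highest for 7 and Mono3 for 6. Prom4 lay above the gene's own mean for 23 of the 27 genes and Mono4 for 7. The median deviation from the gene's own mean was 0.13 in Prom4 and -0.05 in Mono4, and that of all genes was -0.01 and 0.00. For the Jonah genes it was 0.18 in Prom4, -0.18 in Mono4 and -0.15 in Mono3. For the trypsins it was 0.04, -0.02 and 0.03 in these populations. The enterocyte gene mex1 had population means of 9.15 (Mono2) to 9.71 (Prom2) and did not pass (adjusted p = 0.124), and its part in these differences was not tested. RNA quality also varied, as the signal at the 3' end minus that at the 5' end of the actin, GAPDH and eIF4a controls had ranges of population means of 0.33, 0.11 and 0.34, each highest in Mono3. Its part was not tested either.

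Jon74E had the widest range. In Mono4 its arrays read 10.03 and 11.24 after mating to Mono4 males and 9.00 and 10.93 after mating to Prom4 males. The other 28 arrays read 11.75 to 13.01, with a median of 12.62. All Mono4 arrays lay below every other array, with both of batch 1 (10.03 and 9.00) below both of batch 2 (11.24 and 10.93), and they also spread more widely (SD 1.01, n = 4, mean 10.30) than those of any other population. The distance between the Mono4 mean and the highest mean, 12.93 in Prom1, was 2.64 log2 units or 6.22-fold (adjusted p = 1.81e-05). Without Mono4 the range was 0.84 and the gene still passed (adjusted p = 0.00172).

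In the group of 5 on 3L, Mono3 had the lowest mean of 3 genes (yip7, Jon65Aiii and Jon65Ai) and the highest of Jon65Aii. Jon65Ai read 9.90, 9.35, 10.33 and 9.70 in Mono3, and 10.57 to 11.32 with a median of 10.95 on the other 28 arrays, so the groups did not overlap. Its other 7 population means lay between 10.68 and 11.06, and the full range was 1.24 (2.37-fold, adjusted p = 1.74e-05). The call rested on Mono3, since without that population the range was 0.38 and the adjusted p 0.177. Jon65Aii, the next gene, was highest in Mono3 at 11.91 ± 0.15 (SD, n = 4) and lowest in Prom2 at 10.15 ± 0.65, with Mono2 next at 10.73 ± 0.57. That range was 1.77 (3.40-fold), and Jon65Aii had the smallest p of the family (adjusted p = 9.04e-08). The remaining 3 genes, yip7, Jon65Aiv and Jon65Aiii, had narrow ranges of 0.30, 0.29 and 0.42, and each passed (adjusted p = 0.00787, 0.00367 and 0.000733). Their lowest means fell in Mono3 for yip7 and Jon65Aiii, at 13.35 and 13.15, and in Mono4 for Jon65Aiv, at 13.61. The call of yip7 was lost without Mono1 (adjusted p = 0.0881) or with the error taken between the 2 crosses of a population (0.0846), and that of Jon65Aiv without Prom3 (0.0842).

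**Figure D2:**
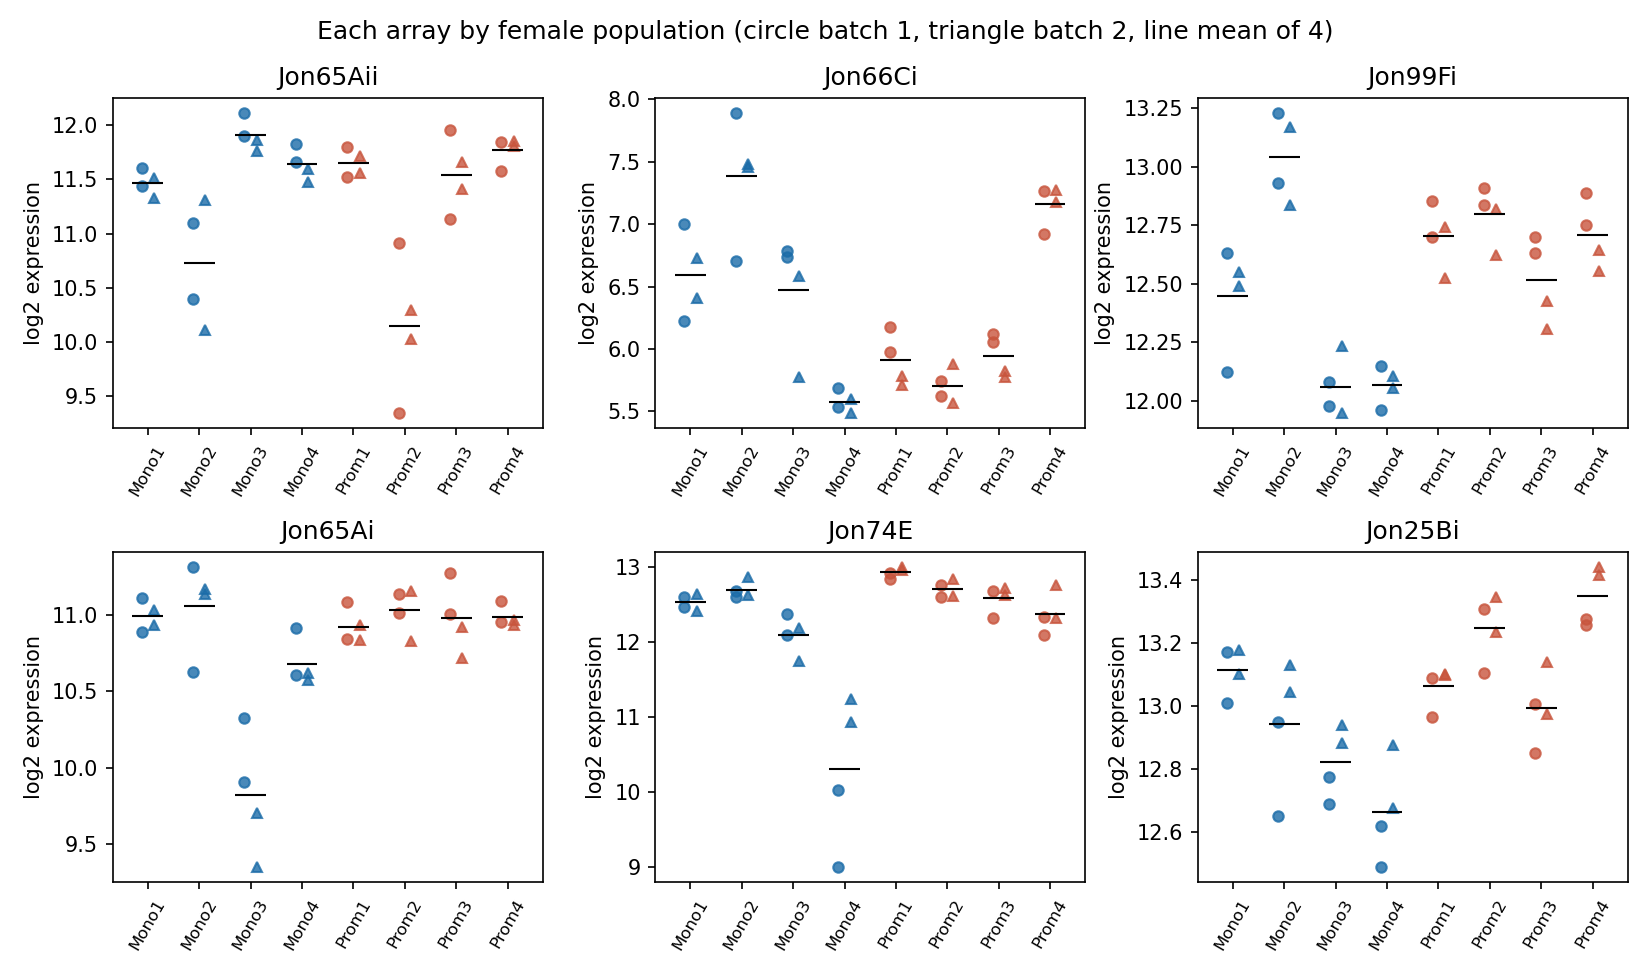
Log2 expression on each array (circles batch 1, triangles batch 2; blue Mono, red Prom; line, mean of 4) by female population for the 6 genes with the smallest p among populations of a regime. The 4 Mono4 arrays of Jon74E (9.00 to 11.24) and the 4 Mono3 arrays of Jon65Ai (9.35 to 10.33) lie below all other arrays of those genes.

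The 3 neighbours on 2L were all lowest in Mono4. Jon25Bi had a mean of 12.67 ± 0.16 (SD, n = 4) in Mono4 and 13.35 ± 0.10 in Prom4, its highest (adjusted p = 3.87e-05). Jon25Bii ran from 12.84 in Mono4 to 13.58 in Prom4 (adjusted p = 0.00144) and Jon25Biii from 13.60 in Mono4 to 14.01 in Mono1 (adjusted p = 0.000345). Without Mono4 the range of Jon25Biii was 0.22 (adjusted p = 0.0504), while Jon25Bi passed whichever population was left out. In the pair on 3L, both genes were highest in Mono2 and Prom4. Jon66Ci read 6.71, 7.46, 7.89 and 7.48 in Mono2 and 6.92, 7.27, 7.27 and 7.18 in Prom4, against a lowest mean of 5.58 ± 0.09 in Mono4 (3.50-fold, adjusted p = 4.79e-07). Its neighbour Jon66Cii had means of 6.01 in Mono2 and 6.07 in Prom4 and of 5.61 to 5.74 elsewhere (adjusted p = 0.0222), and its call was lost without Mono2 (adjusted p = 0.0708) or Prom4 (0.222). Both are dim probe sets, and how far their probes tell the pair apart was not tested.

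Of the Jonah genes set apart from others of the family, Jon99Fi had means of 12.06 in Mono3 and 12.07 in Mono4 and 13.04 in Mono2 (1.98-fold, adjusted p = 3.28e-06). Jon99Ci, also on 3R, had its lowest mean in that same Mono2 population, 11.16 ± 0.20 (SD, n = 4), and its highest in Prom4, 12.31 ± 0.16 (adjusted p = 6.46e-05). Jon44E ran from 8.15 in Prom2 to 9.24 in Mono4 (adjusted p = 0.000484). Without Mono2 the range of Jon99Fi was 0.74 instead of 0.98 (adjusted p = 0.0302) and that of Jon99Ci 0.65 instead of 1.15 (adjusted p = 0.00719). Without Mono4 the range of Jon44E was 0.66 instead of 1.09 (adjusted p = 0.0316). Mono2 thus held the highest mean of one of the 3R genes and the lowest of the other.

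Trypsins had population means within 0.25 to 0.63 log2 units, apart from Try29F, at 1.20, while the Jonah genes had ranges of 0.29 to 2.64. alphaTry ran from 13.62 ± 0.06 in Mono1 to 13.90 ± 0.07 in Mono3 (SD, n = 4; adjusted p = 0.00212) and betaTry from 13.59 ± 0.06 to 13.86 ± 0.04 in the same populations (adjusted p = 0.0421). The call of alphaTry was lost without Mono1 (adjusted p = 0.0528), and that of betaTry without any 1 of the Mono populations (adjusted p = 0.0516 to 0.469). thetaTry was also lowest in Mono1, at 9.98, and highest in Prom3, at 10.61 (adjusted p = 0.000521), and without Mono1 its range was 0.39 (adjusted p = 0.0437). epsilonTry was lowest in Mono4, at 12.24, and kappaTry in Prom2, at 8.70 (adjusted p = 0.0178 and 0.0163). Neither call held without 1 of several populations: Mono2 or Mono4 for epsilonTry (adjusted p = 0.101 and 0.0889), and Mono3, Mono4, Prom2 or Prom3 for kappaTry (0.0561 to 0.0761). kappaTry was also lost with the error taken between crosses (adjusted p = 0.154), and kappaTry, epsilonTry and betaTry without a batch term (0.0629, 0.0673 and 0.14). Try29F, etaTry, iotaTry, zetaTry and lambdaTry did not pass (adjusted p = 0.0567 to 0.59).

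Of the Ser genes, Ser6 read 8.10, 8.27, 8.23 and 8.33 in Mono3, above all other 28 arrays, which read 5.16 to 8.10 with a median of 7.70. The nearest of those, at 8.10, lay just below the lowest Mono3 array. It was lowest in Prom2, where 1 array read 5.16 and the others 6.64 to 6.71 (range of means 1.94 or 3.83-fold, adjusted p = 0.000305), and without Prom2 the range was 1.07 (adjusted p = 0.00873). Ser7 and Ser8 had adjusted p = 0.781 and 0.677. Together with Jon65Ai and Jon74E, Ser6 made 3 of 27 genes with 1 population apart from all other arrays, against 1.97% of probe sets. The population lay below in 2 of these and above in 1, against 1.08% and 0.959% of probe sets.

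The second question was whether females of the regimes differed. No gene of the family passed the test. With the 4 populations of a regime as replicates, 0 of 27 genes passed, as did 0% of all probe sets (limma). The unadjusted p was under 0.05 for 3 of 27 genes (11.1%) and for 1312 probe sets (6.99%). Values were higher in Prom females for 17 genes and lower for 10, with a median difference of 0.06 log2 units, against 0.00 over all genes. The median was 0.10 for Jonah genes and -0.01 for trypsins.

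**Figure D3:**
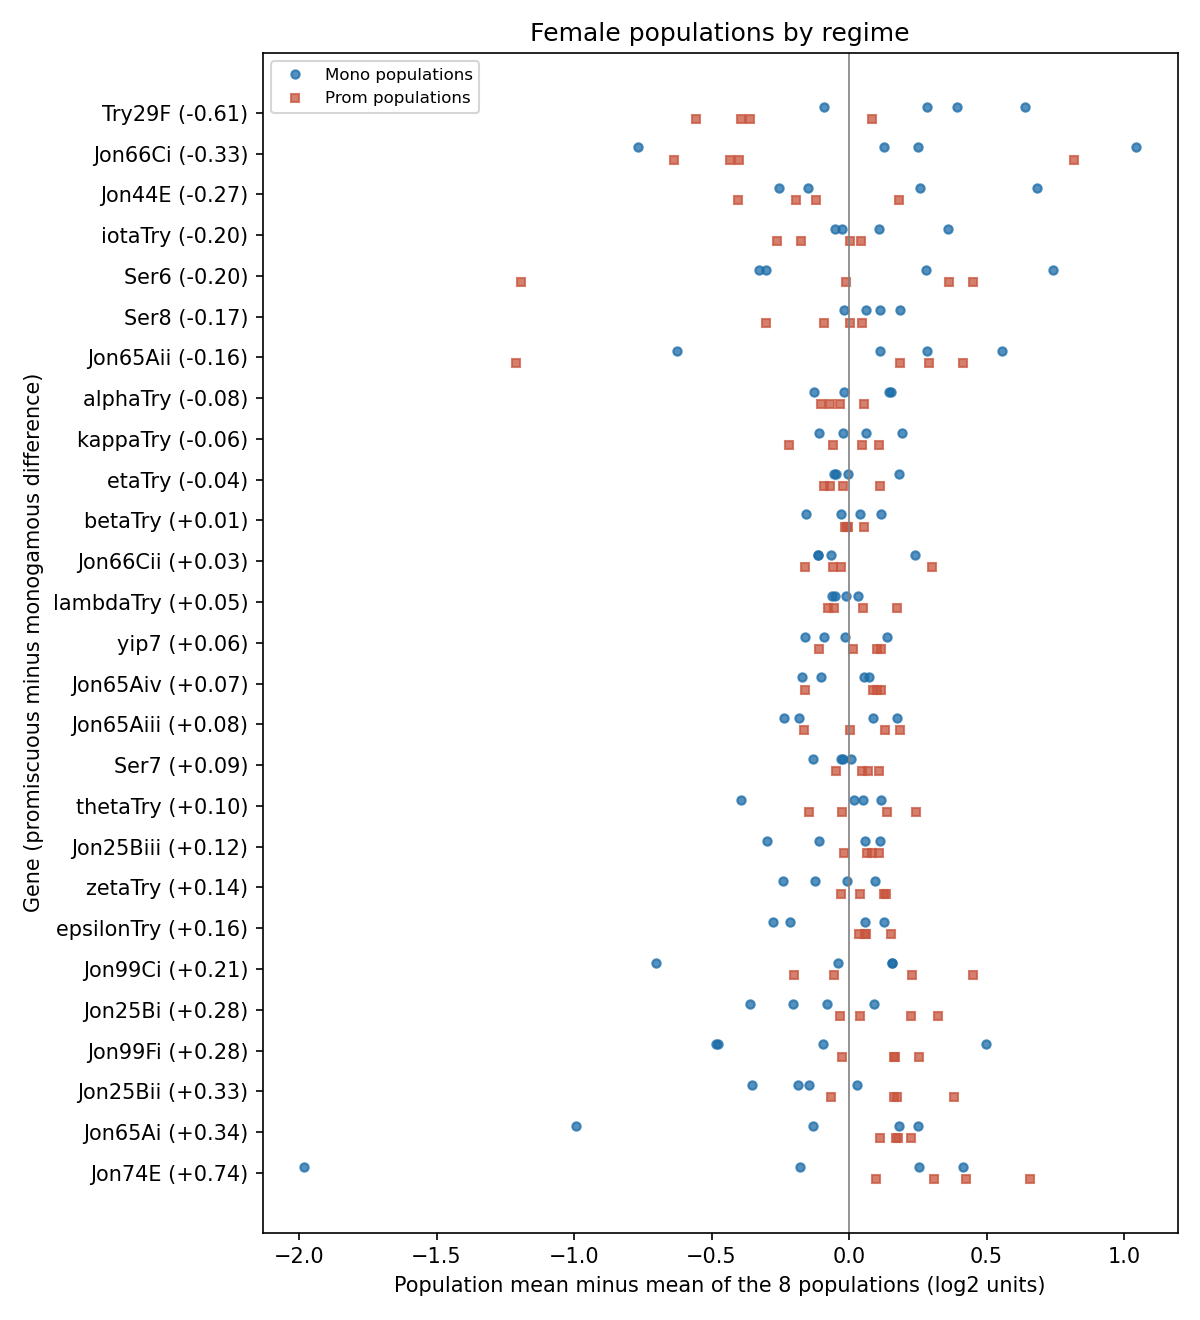
Mean of each female population minus the mean of the 8 populations, in log2 units, for the 27 genes (blue circles Mono, red squares Prom), ordered by the Prom minus Mono difference printed beside each name. Mono and Prom populations overlap for every gene, from Try29F at -0.61 to Jon74E at +0.74.

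Try29F, the lone trypsin on 2L, had the smallest p. Its means were 5.97, 6.22, 5.48 and 5.86 in Mono1 to Mono4 and 5.66, 5.02, 5.18 and 5.21 in Prom1 to Prom4. Prom females averaged -0.61 ± 0.17 (SE, n = 4 populations against 4; adjusted p = 0.581), and Prom1 lay above Mono3. Jon25Bii had means of 13.23, 13.01, 13.06 and 12.84 in Mono populations and 13.36, 13.38, 13.13 and 13.58 in Prom populations. The difference was 0.33 ± 0.10 (SE; adjusted p = 0.616), with Prom3 below Mono1. Its neighbour Jon25Bi gave 0.28 ± 0.11 (adjusted p = 0.674) and Ser8 -0.17 ± 0.08 (adjusted p = 0.712), or -0.10 without Prom2. The largest difference, 0.74 ± 0.47 for Jon74E (adjusted p = 0.798), had Mono means of 12.53, 12.69, 12.10 and 10.30. The 4 means of a regime were clear of those of the other in 0 of 27 genes, against 4.08% of probe sets (2.48% with Prom higher and 1.6% with Prom lower). With the 32 arrays in the fit and population as a random block, Try29F, Jon25Bii and Jon25Bi passed (adjusted p = 0.0284, 0.0061 and 0.0454), as did 0.964% of probe sets. That fit counts arrays as well as populations, so its p-values do not rest on 4 populations against 4 alone.

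The third question was whether the regime of the mate mattered. After mating to Prom males, 22 of the 27 genes had lower values than after mating to Mono males, but no gene passed. The contrast averaged 8 differences within female populations. Over all genes 46.5% were lower, and among the bright genes 10 of 11 in the family and 50.4% of 280 in all. The median difference was -0.06 log2 units in the family and 0.00 over all genes. Passing were 0 of 27 genes and 0% of probe sets (limma), while 9 of 27 (33.3%) and 1977 probe sets (10.5%) had an unadjusted p under 0.05. Within batch 1, 23 of 27 were lower, and within batch 2, 20 of 27. Since each pair of male populations met a Mono and a Prom female population, the 8 differences rest on 4 pairs of male populations.

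**Figure D4:**
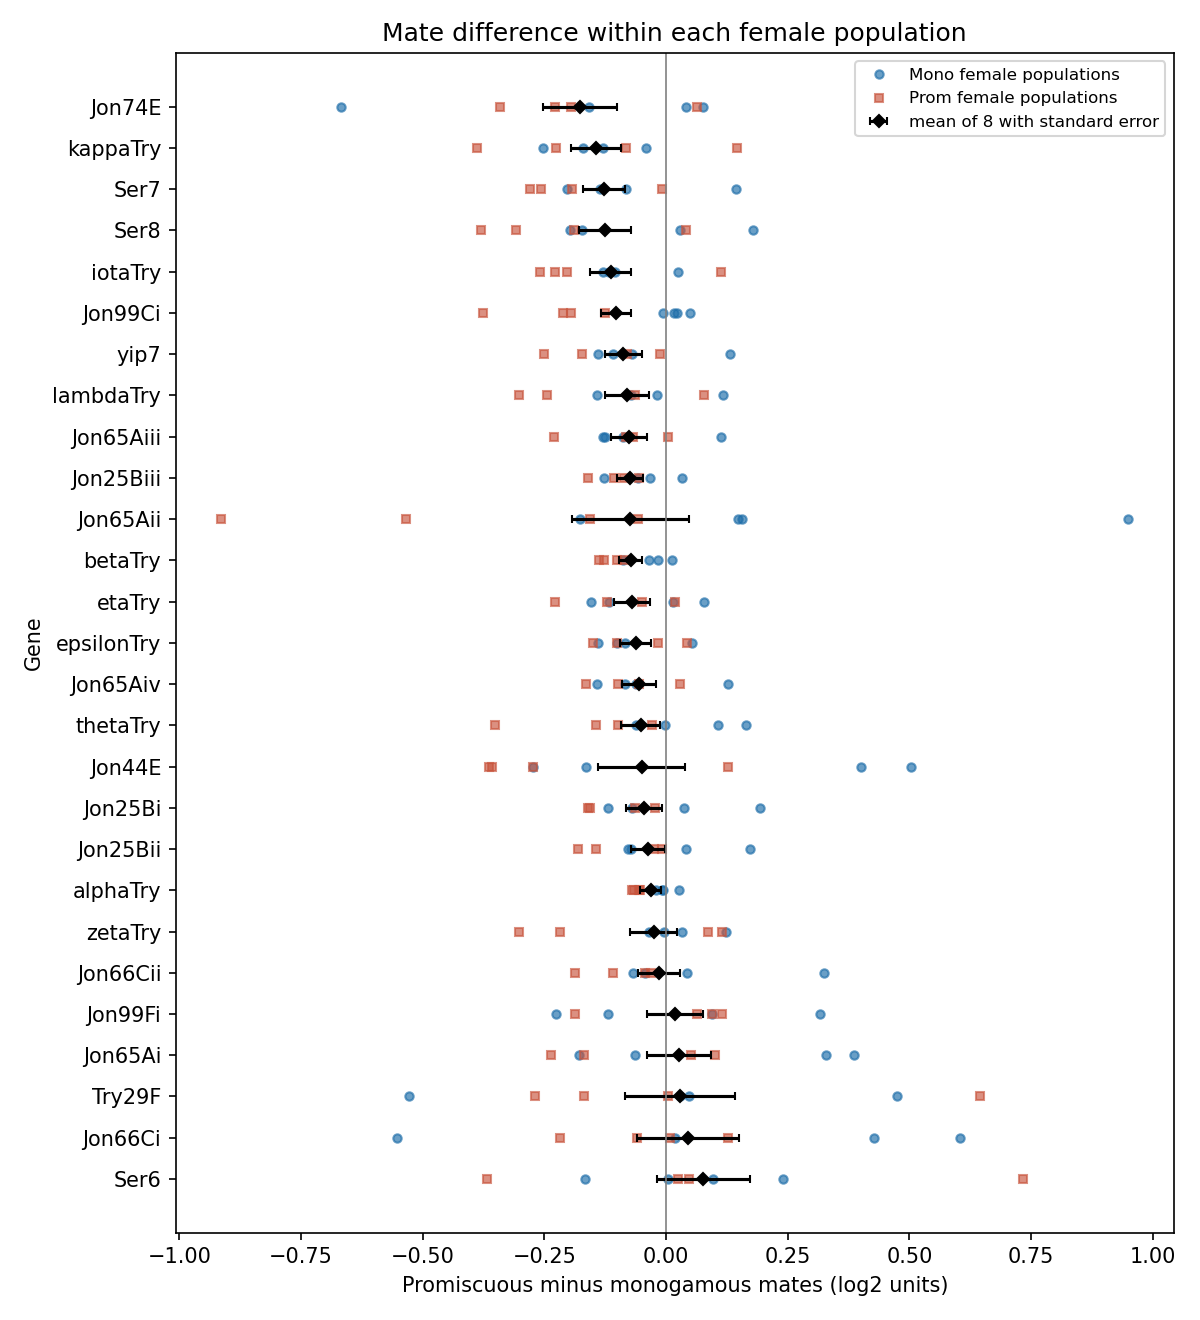
Value after mating to Prom males minus that after mating to Mono males, in log2 units, for the 27 genes in each female population (blue circles Mono, red squares Prom), with the mean of 8 and its standard error (black). Means lie below 0 for 22 genes and none is beyond the threshold of the test.

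Jon99Ci had the smallest p, with -0.10 ± 0.03 (SE, n = 8 differences, 5 of 8 lower; adjusted p = 0.402), or -0.06 without Prom2. The differences for betaTry were -0.09, 0.01, -0.04 and -0.02 in Mono1 to Mono4 and -0.14, -0.13, -0.10 and -0.09 in Prom1 to Prom4, so 7 of 8 were lower. Their mean was -0.07 ± 0.02 (adjusted p = 0.402). Ser7 gave -0.13 ± 0.04 (7 of 8 lower; adjusted p = 0.407) and Jon25Biii -0.07 ± 0.03 (7 of 8 lower; adjusted p = 0.411). In all, 6 of 27 genes were lower in at least 7 of the 8 populations, against 5.34% of probe sets, and 0 were higher in as many, against 5.95%. These differences were small, as a log2 difference of -0.18 in Jon74E was the largest in size among the 22.

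The count of lower genes varied between female populations. It was 23 of 27 in Mono1, 9 in Mono2, 14 in Mono3 and 15 in Mono4, and 22 in Prom1, 21 in Prom2, 24 in Prom3 and 17 in Prom4. Over all genes the share lower was 42.8%, 48.1%, 46.6% and 54.2% in Mono1 to Mono4 and 42.1%, 58.1%, 47.6% and 46.3% in Prom1 to Prom4. Over Mono females 14 of 27 genes were lower, with a median of 0.00, and over Prom females 24 of 27, with a median of -0.10. Over all genes 48.0% and 48.4% were lower, and of the 280 bright genes 40.7% and 63.9%, against 8 and 10 of the 11 in the family. Neither contrast had a passing gene (limma; 0% of probe sets in each; unadjusted p under 0.05 for 0 and 9 of 27, and for 8.57% and 9.41% of probe sets). Beside these values, mex1 gave -0.10 ± 0.05 (SE; adjusted p = 0.503), with medians of 9.40 and 9.40 in Mono females after Mono and Prom males and of 9.57 and 9.50 in Prom females. Of the ovary genes osk, vas, bam, grk and bcd, 5 of 5 were higher after Prom males (median difference 0.08, 0 passing). The log2 of their summed signal lay between 12.98 and 13.37 after Mono males and between 12.98 and 13.33 after Prom males in Mono females, and between 12.88 and 13.16 and between 12.99 and 13.19 in Prom females. The part of either in the family's values was not tested. The 3' minus 5' signal of actin, GAPDH and eIF4a differed by 0.05, 0.03 and 0.06 between mates, lower in 3, 4 and 4 of 8 populations.

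Whether the mate difference itself depended on the regime of the female was tested as an interaction, the mate difference in Prom females minus that in Mono females. No gene passed (0 of 27, and 0% of probe sets; limma; unadjusted p under 0.05 for 3 of 27 and for 1367 probe sets). The value was below 0 for 21 genes, or 77.8%, against 49.4% of all genes, with a median of -0.08 against 0.00. Among genes with a mean of at least 12, 8 of 11 in the family and 183 of 280 in all (65.4%) were below 0. For Jon99Ci the mate differences were -0.01, 0.02, 0.02 and 0.05 in Mono1 to Mono4 and -0.13, -0.38, -0.20 and -0.21 in Prom1 to Prom4. These did not overlap, and the interaction was -0.25 ± 0.06 (SE; adjusted p = 0.661). alphaTry, with -0.02 to 0.03 against -0.07 to -0.05, was the other of 2 genes with Prom females all lower, a pattern of 2.46% of probe sets. The reverse pattern had 0 of 27 genes and 2.13% of probe sets. thetaTry gave -0.21 ± 0.08 (adjusted p = 0.664) and Jon44E -0.33 ± 0.18 (adjusted p = 0.714), or -0.20 without Mono2. Own population and own regime cannot be told apart in this contrast.

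Jon65Aii had the largest mate differences in a single population of the 27 genes. Mono2 females read 10.40 and 10.11 after mating to Mono2 males and 11.10 and 11.31 after mating to Prom2 males. Prom2 females read 10.91 and 10.29 after Mono2 males and 9.34 and 10.03 after Prom2 males. In both populations the arrays with own males lay below those with males of the other regime, so the mate differences had opposite signs, 0.95 in Mono2 and -0.91 in Prom2. The interaction over all populations was -0.68 ± 0.24 (SE; adjusted p = 0.664), with the value nearest 0 on leaving out a population, -0.46, without Mono2. The joint test of the 8 mate differences gave an unadjusted p of 0.000274 for Jon65Aii and 0.0159 for kappaTry, and neither passed (adjusted p = 1; 0 of 27 genes passed, against 0.00533% of probe sets).

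**Figure D5:**
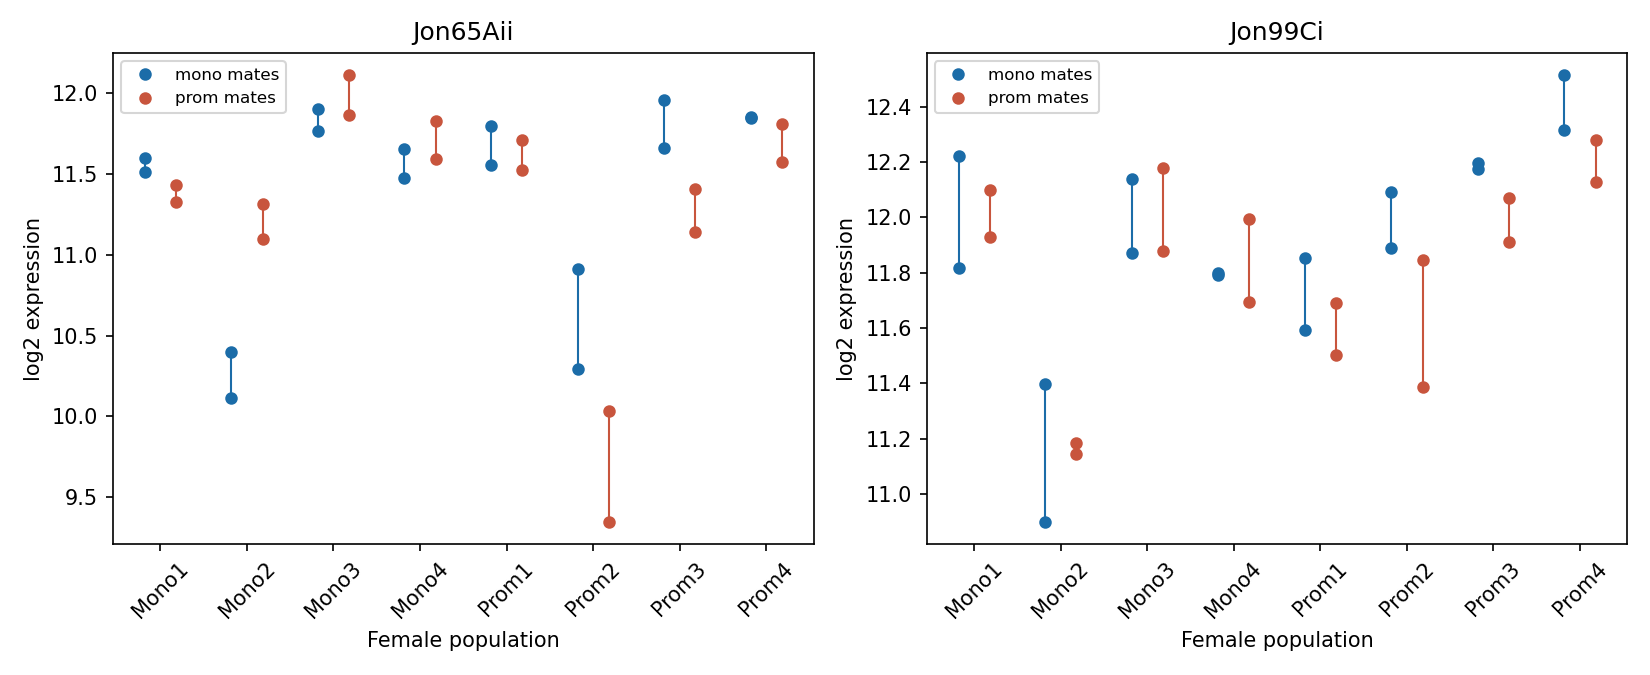
Log2 expression of Jon65Aii and Jon99Ci on each array by female population (blue, Mono mates; red, Prom mates; lines join the 2 arrays of a cross). Jon65Aii ranges from 9.34 to 11.31 over the crosses of Mono2 and Prom2, and Jon99Ci is lower after Prom mates in the 4 Prom populations.

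Between batches, 1 of 27 genes passed, against 19.8% of probe sets (limma; 10.2% higher and 9.57% lower in batch 2). The unadjusted p was under 0.05 for 9 of 27 genes (33.3%) and for 32.9% of probe sets. Among genes with a mean of at least 12, it was so for 6 of 11 in the family and 37.1% of 280 in all. Jon25Bi was higher in batch 2 by 0.15 ± 0.03 (SE; adjusted p = 0.00196), in 16 of 16 crosses, and epsilonTry by 0.12 ± 0.04 (adjusted p = 0.0549), in 11 of 16. The 3' minus 5' signal was higher in batch 2 by 1.00 for actin, 0.40 for GAPDH and 0.93 for eIF4a. The count of genes passing between batches was 5 with arrays centred on their median, 6 with cyclic loess, and 2, 2, 5, 3 and 2 without Mono1, Mono2, Mono3, Prom2 and Prom4.

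Of all genes, 17.4% passed among populations of a regime, and the shares of other listed proteases, amylases, maltases and lipases ran above that. Whether each listed gene acts in digestion, or is expressed in the gut, was not tested. Among the other serine proteases, CG17234 had its lowest population mean in Mono3 (6.03) and its highest in Prom2 (9.22). So had Send2 (4.71 and 8.63), listed as a gene of the spermatheca, the sperm store. Of the other serine proteases listed, 22 of 42 passed, of carboxypeptidases with aspartic and related proteases 11 of 35, of amylases and maltases, which digest starch and sugars, 11 of 12, and of lipases 7 of 15. The smallest p in each was that of CG9672 (adjusted p = 1.81e-07), CG18417 (2.43e-05), Mal-A6 (4.42e-09) and CG2772 (4.73e-07). Mal-A6 ran from 8.65 in Prom1 to 11.79 in Mono3. Of 11 gut transcription factors, 2 passed, the GATA factors GATAe and srp (adjusted p = 0.0453 and 0.0391), and of 11 genes of sugar repression and Activin signalling 2, sug and cbt (adjusted p = 0.00197 and 0.0177). These 2 shares lay near that of all genes. Of the 6 enteroendocrine genes, 0 passed. Short lists of other genes also held passing ones. These were 2 of 3 lysozymes, 2 of 2 spermatheca genes, 1 of 2 Malpighian tubule genes and 1 of 4 fat body and yolk genes. The ovary list had 1 of 5, the male accessory gland list 1 of 7 and the testis list 0 of 4. A share above that of all genes was thus not particular to the digestive lists, although these lists were short.

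No gene of these lists passed between female regimes, between mate regimes or for the interaction. Between female regimes Mal-B1, a maltase gene, had the smallest p of these lists, at -1.22 ± 0.24 (SE; adjusted p = 0.578). Of the amylases and maltases 10 of 12 were lower in Prom females and 2 higher, with a median of -0.49. Of all genes 47.1% were lower, with a median of 0.00. Among other serine proteases the smallest p was that of CG31681, at -1.60 ± 0.46 (adjusted p = 0.581). Among carboxypeptidases and related proteases it was that of CG8560, at 0.48 ± 0.11 (adjusted p = 0.578). In the list of sugar repression and Activin signalling it was that of daw, an Activin-like ligand, at 0.29 ± 0.07 (adjusted p = 0.578). Between mates, 35 of 42 other serine proteases were lower after Prom males, with a median of -0.06, as were 9 of 12 amylases and maltases, with a median of -0.09, and 23 of 35 carboxypeptidases and related proteases, with a median of -0.03. Of all genes 46.5% were lower, with a median of 0.00. Of the genes of sugar repression and Activin signalling 10 of 11 were higher, with a median of 0.05, and of the lipases 10 of 15 were lower, with a median of -0.02. CG10477, a predicted serine protease, had the smallest p of these, at -0.19 ± 0.04 (adjusted p = 0.402).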

How the data were processed

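RNA of whole mated females was measured on 32 arrays, 8 in each of 4 groups. The authors deposited log2 values for each probe set, made with RMA and affy per the submitters' processing notes, which give no versions. RMA corrects background, gives arrays a common distribution and summarises probes, which hides any shift common to most transcripts. The sources do not state whether normalization took all arrays at once. The number of arrays limits precision. Of 18952 probe sets, 183 array controls were left out.

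Genes were named from the platform annotation where it gave 1 gene (13647 probe sets), with the brightest probe set standing for a gene. All 27 members matched the RefSeq table of Release 6 plus ISO1 MT by gene identifier. That table was used only for arms and gene order.

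limma 3.58.1 in R 4.3.3 was run on all 18769 probe sets, two-sided, with Benjamini-Hochberg adjustment and a threshold of 0.05. Regimes of females were compared over 4 and 4 population means, mates and the interaction over 16 cross means with female population as a block. Populations of a regime, single-population mate differences and batches were compared over 32 arrays, in a fit with terms for cross and for batch. The error of these last tests is the spread between the replicate arrays of a cross. The tests of female regime, mates, interaction, populations, single-population mate differences and batch were also run on simulated data. Those data held independent noise on each array and no spread between populations. The tests within a single regime were not simulated.

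The members and lists were chosen with earlier results of these data known. Any member may be named. In full are given the 4 with the smallest p for the female regime, the mates and the interaction, 6 for populations, 2 for batch and for single populations, and the brightest and dimmest 3. In other lists the gene with the smallest p and any that passed could be named. The other lists held 160 of 182 genes named in them. Alternatives were scaling, a brightness filter, single batches, blocks and leaving out each population.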

Additional observations from a re-analysis of the deposited data

Results flagged for a closer look

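In 81 sets of population means or mate differences examined for a value far from the others, 5 held one. Chance flags about 1 in 20 such sets. Among Prom populations, the mean of Jon65Aii in Prom2 was 10.15 and the nearest other 11.54, that of Jon66Ci in Prom4 was 7.16 and the nearest other 5.94, and that of Jon65Aiv in Prom3 was 13.62 and the nearest other 13.87. Among Mono populations, the mean of Jon66Cii in Mono2 was 6.01 and the nearest other 5.70. The mate difference of Jon66Cii in Mono2 was 0.32, and the nearest of the other 7 was 0.04.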

How the results depend on the processing

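No median changed direction, nor did any gene given in full for its small p, in the contrast concerned. Other genes of the 27 did. In batch 2 alone, 7 changed sign for the interaction and 4 for mates, and without Mono1, 4 changed sign for the female regime. These were the highest such counts for those contrasts. The count of genes differing among populations of a regime, 20, was 17 to 21 without each population in turn, 21 with cyclic loess or median centring, 19 of 25 tested with a mean of at least 6, and 17 without a batch term. With the error taken between the 2 crosses of a population, an alternative chosen after seeing the data, it was 19, of which 18 were shared (kappaTry and yip7 lost, iotaTry gained), while 12.8% of probe sets passed. Counts for female regime, mates, interaction and single populations were 0 without each population in turn, and medians were 0.03 to 0.08, -0.08 to -0.05 and -0.11 to -0.05 for the first 3. The median mate difference was -0.09 in batch 1 and -0.03 in batch 2.

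For the female regime, 3 genes passed with the 32 arrays and population as a random block, which counts arrays as well as populations. For batch, 1 passed, against 6 with cyclic loess, 5 with median centring, 5 with a mean of at least 6, 0 without cross terms (for Jon25Bi adjusted p = 0.203) and 1 to 5 without each population in turn. The cause was not tested.

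Same-numbered Mono and Prom populations had correlations of deviations of 0.13, 0.07, 0.19 and 0.02, so the numbers were not taken as pairs. With population number as a replicate block, 0 genes passed for the female regime and the median was 0.06. Without the replicate block for female population, 0 passed for mates. The alternative of all probe sets of a gene gave nothing new, since each gene had 1. Signal over background could not be judged from summarised values.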
